A study of Caenorhabditis elegans with 2 samples.

Results

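The regions described here are the binding peaks of SNPC-1.2 that lay inside annotated genes but away from every annotated gene start. They come from chromatin immunoprecipitation followed by sequencing (ChIP-seq), in which an anti-GFP antibody pulls down a tagged protein with the DNA it sits on. The material was whole Caenorhabditis elegans of strain RW12251, in which CRISPR had inserted a TY1, EGFP and 3xFLAG tag into the snpc-1.2 gene on chromosome III. The larvae had been synchronised by starvation at the L1 stage after bleaching and were taken as L4 larvae at 48 hours. There was 1 group with 2 biological replicates, no second genotype, stage or treatment, and the control library was not analysed here. Whole animals mix all tissues, so a peak seen in few cells and a weak peak seen in many cannot be told apart. A peak was a member when its summit lay inside the span of an annotated gene, had no gene 5' end of any kind within 250 bp, and fell outside the piRNA clusters of chromosome IV (4.5 to 7.0 and 13.5 to 17.2 Mb). The whole-series list held 2842 peaks, of which 2829 were nuclear, and 497 met the rule (17.6% of nuclear peaks, exact 95% interval 16.2 to 19.0). Of the 1798 nuclear peaks outside the clusters, the members made up 27.6%, beside 908 peaks within 250 bp of a 5' end and 393 between genes. Within this list the rule used position only, and sequence was not used to choose the members. The list itself had been thresholded on the irreproducible discovery rate, so peak strength and reproducibility had already acted on what it holds.

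SNAPc, the small nuclear RNA-activating protein complex, binds a promoter element just upstream of small nuclear RNA genes and recruits either RNA polymerase II or RNA polymerase III. In nematodes SNAPc subunits are also found over the piRNA clusters, where very short piRNA genes are transcribed one by one. Genes for transfer RNAs, which RNA polymerase III also transcribes, have their promoter inside the gene, as an A box followed by a B box. The label of the members, inside genes and outside clusters, follows from the annotation alone. It does not say that the host gene is what the protein acts on.

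Several sets of members shared sequence, and the stretches that define these sets are shown first, since later values refer to them. All are intronic over their whole length, are given 5' to 3' on the strand named, and use assembly ce11. The sets were picked after the members had been compared with each other. The first sequences hold matches to the consensus of the A box and B box of transfer RNA genes, marked in capitals in that order. The members in spe-43 (chrIV:13140991-13141064, plus strand), srt-52 (chrV:53473-53546, plus strand) and tpra-1 (chrIV:8964239-8964312, plus strand) belong to 1 family of elements, and 66 of 74 bases were identical between spe-43 and tpra-1. The member in frpr-2 (chrX:12967150-12967223, minus strand) belongs to another family. The pair of boxes lay within 75 bp of the summit in 8 of the 13 members of the first family and 3 of the 8 of the other. Those in lips-10 (chrII:8441634-8441707, minus strand) and Y69A2AR.31 (chrIV:2657434-2657506, minus strand) belong to neither.
spe-43: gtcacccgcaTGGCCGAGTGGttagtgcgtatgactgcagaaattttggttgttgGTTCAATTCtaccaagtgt
srt-52: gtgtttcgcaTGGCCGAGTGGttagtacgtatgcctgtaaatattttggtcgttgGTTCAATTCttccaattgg
tpra-1: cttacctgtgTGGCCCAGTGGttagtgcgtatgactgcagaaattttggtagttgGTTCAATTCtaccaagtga
frpr-2: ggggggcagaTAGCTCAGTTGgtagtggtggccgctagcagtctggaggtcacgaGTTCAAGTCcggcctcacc
lips-10: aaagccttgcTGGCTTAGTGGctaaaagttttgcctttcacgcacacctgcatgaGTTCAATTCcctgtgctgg
Y69A2AR.31: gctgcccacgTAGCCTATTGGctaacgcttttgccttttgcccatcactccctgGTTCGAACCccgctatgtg

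The second set holds 3 of 6 nearly identical copies of an element with a B-box-like word, GTTCNACCC, in capitals. They lie in introns of K08C7.1 (chrIV:10658464-10658564, plus strand), T24H10.5 (chrII:9102779-9102879, plus strand) and pmt-2 (chrV:4632949-4633049, minus strand), and 99 of 101 bases were identical between the first and the second of these. None of the 6 copies held an A box followed by a B box within 75 bp of the summit. The word in T24H10.5 does not match the B box as searched, and that in K08C7.1 lay 87 bp from the summit.
K08C7.1: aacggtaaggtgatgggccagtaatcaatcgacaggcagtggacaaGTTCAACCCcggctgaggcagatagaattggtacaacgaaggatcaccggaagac
T24H10.5: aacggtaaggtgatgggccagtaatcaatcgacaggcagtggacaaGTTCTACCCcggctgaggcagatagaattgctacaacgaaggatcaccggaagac
pmt-2: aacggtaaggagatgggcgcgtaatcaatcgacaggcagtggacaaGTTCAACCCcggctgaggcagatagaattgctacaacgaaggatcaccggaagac

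The third set shares a stretch that in most of its members holds the word CGGCCGAC, in capitals, shown for F54G2.1 (chrX:2663944-2664031, plus strand), M02D8.7 (chrX:8741797-8741884, minus strand) and WBGene00019912 (chrIII:971144-971231, minus strand). Base by base, with no gaps, the last 2 of these were identical at 77 of 88 bases, and F54G2.1 matched them at 59 and 63. The stretch in Y16B4A.2, of the same set, matched the 3 at 40 or 41. The fourth set is a tandem repeat of TTC and GAA triplets on alternate strands, 3 of which are in capitals, shown for tir-1 (chrIII:3897280-3897372, minus strand) and cua-1 (chrIII:13447532-13447624, plus strand). These were identical at 89 of 93 bases, while the stretch in oat-1, of the same set, matched them at 54 and 53. TTCNNGAANNTTC lay within 75 bp of the summit in 7 of the 11 members of this set.
F54G2.1: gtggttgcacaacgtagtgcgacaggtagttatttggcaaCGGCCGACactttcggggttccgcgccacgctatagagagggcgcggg
M02D8.7: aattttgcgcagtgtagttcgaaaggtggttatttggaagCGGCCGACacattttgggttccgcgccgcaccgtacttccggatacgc
WBGene00019912: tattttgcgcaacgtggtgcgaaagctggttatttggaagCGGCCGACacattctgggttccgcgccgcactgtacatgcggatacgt
tir-1: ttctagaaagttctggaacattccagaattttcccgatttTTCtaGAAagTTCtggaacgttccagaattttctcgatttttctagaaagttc
cua-1: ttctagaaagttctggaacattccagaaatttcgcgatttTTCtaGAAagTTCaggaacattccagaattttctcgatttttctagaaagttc

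The 5 members with the highest signal lay in introns. The signal is the peak caller's value as deposited, with no scale stated, so it is compared only within a list. The highest was in let-268, which encodes a procollagen lysyl hydroxylase, with a signal of 440.1 in the whole-series list, 225.4 in replicate 1 and 215.8 in replicate 2. Its summit was 467 bp from the nearest gene 5' end, that of the neighbour mtcu-2. The next was in ckk-1, a calcium/calmodulin-dependent protein kinase kinase, at 400.6 (197.4 and 199.3 in replicates 1 and 2), and cmk-1, a kinase of the calcium/calmodulin-dependent family that CKK-1 phosphorylates, was also among the 5 highest at 361.9 (191.0 and 154.3). K08C7.1, one of the nearly identical copies, reached 388.5 (198.5 and 197.3), and mdt-26, a subunit of the Mediator complex, 383.4 (189.7 and 214.1). In these 5 members both replicates were above 150. let-268 was the highest in each replicate, while the order of the other 4 was not the same in both.

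The other 10 of the 15 highest members ranged from 299.4 down to 221.4. T24H10.5 stood at 299.4, tir-1, an adaptor with a TIR domain, at 282.2, spe-43, a gene for sperm maturation, at 253.4 and pck-2, a phosphoenolpyruvate carboxykinase, at 252.5. C33B4.4 followed at 240.8, the non-coding RNA C30E1.9 at 234.7, lips-10, a lipase-related gene, at 229.0, and spd-5, a scaffold of the centrosome, at 228.5. The pseudogene WBGene00020829 stood at 224.9 and dos-3, which encodes a protein with the DOS motif of Notch co-ligands, at 221.4. Of the 15, 13 were in introns, 13 were off the X chromosome and 8 had at least 1 further copy of their sequence in the genome. The exceptions to introns were C30E1.9, in a non-coding exon, and dos-3, in a coding exon. The highest on each chromosome were pck-2 on I, let-268 on II, ckk-1 on III, K08C7.1 on IV, pmt-2 (205.3) on V and C30E1.9 on X. In C30E1.9 the replicates differed most among these, at 173.5 and 69.14. In spd-5 the peak of replicate 2 had no summit inside the member, so only the value of replicate 1, 126.2, can be given.

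As a class the members were weaker than the other peaks. Their median signal was 91.2 (quartiles 80.3 and 109; range 3.21 to 440.1), against 133 for peaks within 250 bp of a 5' end, 107 for peaks between genes and 105 for peaks in the piRNA clusters. The median of the members was thus 0.687 times that of the peaks near 5' ends. In the replicates' own lists this ratio was 0.697 (replicate 1, medians 61.4 and 88.1) and 0.726 (replicate 2, medians 65.0 and 89.5), so it lay below 1 in each. Only 7 members (1.41%) were among the highest 10% of nuclear peaks by signal, against 100 (11.0%) of the peaks near 5' ends and 159 (15.4%) of the cluster peaks. No test over peaks was run, since peaks of 1 list are not replicates.

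A small tail of very weak members sat on the shoulder of stronger peaks. There were 30 members with a signal under 50 (3.21 to 44.3), and 29 of these overlapped another peak of the same list that was stronger. Among the other 467 members, 39 overlapped another peak and 6 a stronger one. An example is mnk-1, where a summit with a signal of 15.9 lay beside a summit at 112 in the same gene. The weakest of all was in rps-2, which encodes a ribosomal protein of the small subunit, at 3.21.

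Fewer members than other peaks were called in the replicates on their own. Each replicate has a thresholded list of its own, and a member counted as called when a peak of that list overlapped it by 1 bp or more. Replicate 1 called 145 of 497 members (29.2%, exact 95% interval 25.2 to 33.4), against 46.2% of all nuclear peaks. Replicate 2 called 171 (34.4%, 30.2 to 38.8), against 55.8%. Both replicates called 79 members (15.9%, 12.8 to 19.4), against 35.6%, and neither called 260 (52.3%, 47.8 to 56.8), against 33.6%. The members were below the background in each replicate and above it for peaks called in neither. The conservative list of the series overlapped 366 members (73.6%), against 83.2% of nuclear peaks.

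Support went with signal. The 79 members called by both replicates had a median signal of 149.9, the 158 called by 1 replicate 98.9 and the 260 called by neither 83.0, and of the 50 highest members 42 were called by both and 1 by neither. That weaker peaks are called less often is built into such lists, so this order is a description of them. In the longer ranked lists, which keep peaks below the threshold, a summit inside the member was present for 476 members in replicate 1 and 472 in replicate 2, and only 4 had none in either. For the 455 members with a value in both, the ratio of replicate 2 to replicate 1 had a median of 1.05 (quartiles 0.818 and 1.35), and 412 (90.5%) agreed within 2-fold. Most members thus had a value in both replicates, while 260 passed the threshold of neither replicate's own list. The whole-series list was itself thresholded on reproducibility, so this presence and agreement are in part built in and are a description as well.

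**Figure D1:**
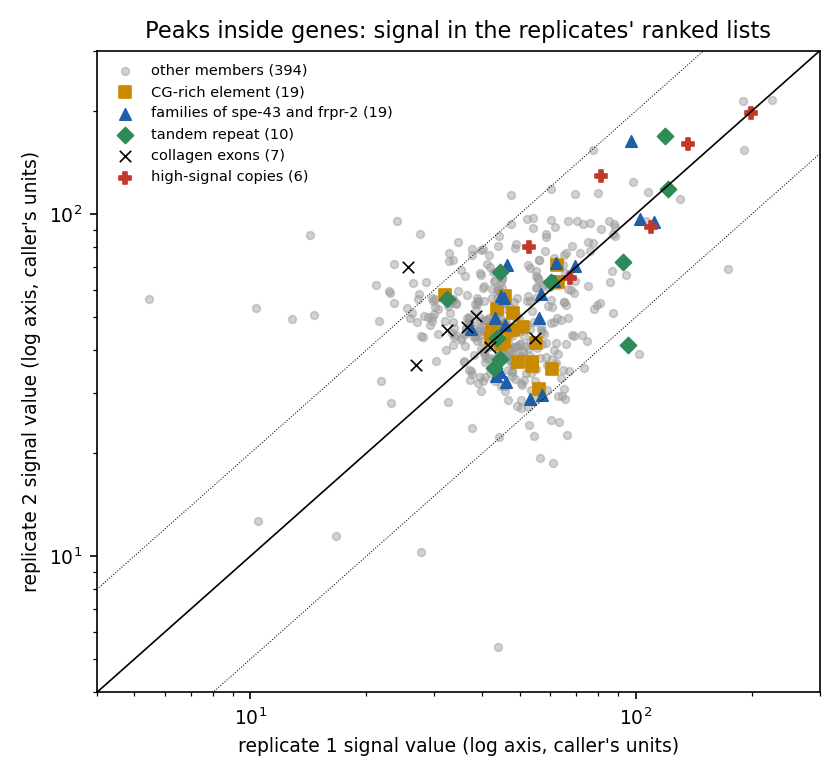
Each point is a member with a value in both replicates (455 of 497), plotted by the signal of its strongest call in the ranked list of replicate 1 (x axis, log) and replicate 2 (y axis, log), in the peak caller's units; the solid line marks equal values and the dotted lines a 2-fold difference. Symbols mark 6 of the sets of members with shared sequence, those of spe-43 and frpr-2 together, and most points lie between the dotted lines.

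Within genes, the members had larger shares in untranslated regions and at 3' ends, and a smaller share in introns, than the positions open to them. Introns held 228 members (45.9%, exact 95% interval 41.4 to 50.4), against 53.5% of the 55.1 Mb of positions that meet the rule. Coding exons held 175 (35.2%, 31.0 to 39.6), against 37.2%. Untranslated regions (UTRs) held 76 (15.3%, 12.2 to 18.8), against 6.11% of positions, with 60 in 3' UTRs (12.1%, against 5.18%) and 16 in 5' UTRs (3.22%, 1.85 to 5.18, against 0.962%). Non-coding exons held 18 (3.62%, 2.16 to 5.66), against 3.17%, and their share was 5.81% and 6.90% in the own lists of replicates 1 and 2. Within 250 bp of a gene 3' end, of the host or of any other gene, lay 97 members (19.5%, 16.1 to 23.3), against 9.50%. Of these 97, 10 were in introns. The shares in UTRs and at 3' ends were above those of the positions in each replicate's own list as well. The UTR share was 14.5% in replicate 1 and 24.1% in replicate 2 (mean 19.3% ± 6.79, SD, n = 2), and the 3' end share 20.3% and 29.6% (24.95% ± 6.51, SD, n = 2). The intron share was below that of the positions in each, at 44.8% and 38.9%. For the 79 members called by both replicates, however, the intron share was 53.16%, close to the 53.5% of positions. For the 158 called by 1 replicate it was 37.97%, and for the 260 called by neither 48.46%. The smaller intron share of the whole set thus did not extend to the members called by both. Coding exons held 20.25% of the 79, below the 37.2% of positions, but 37.34% of the 158 and 38.46% of the 260. Non-coding exons held 11.39% of the 79, above the 3.17% of positions, but 3.165% of the 158 and 1.538% of the 260. Along 456 members with 1 protein-coding host, the median summit was 62.1% of the way from the 5' to the 3' end, against 53.8% for all such positions, and the last 25% of the length held 35.5% of them, against 26.9%.

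The highest in the 3' end class were dos-3, then htz-1, the histone variant H2A.Z, whose member lay in a UTR 17 bp from the gene's 3' end with a signal of 191.0 (87.8 and 93.7 in replicates 1 and 2), and elf-1 at 186.1 (69.5 and 114.6). For elf-1 the 3' end is that of another gene, since the summit was at position 698995 and elf-1 itself ends at 715822. In UTRs, T10B5.3 at 192.5 came before htz-1, and klp-18, a kinesin of the meiotic spindle, followed at 178.6 (60.4 and 118.0). In coding exons dos-3 was followed by lmd-2, which encodes a LysM domain protein, at 181.7 and by Y43F8B.3 at 177.5. The highest in non-coding exons after C30E1.9 were 2 members in tos-1, a gene named as a target of splicing, at 173.1 and 169.3. Introns and coding exons had close median signals, 92.4 and 86.2, and UTRs and non-coding exons somewhat higher ones, 97.5 and 113. Of coding-exon members 16 of 175 (9.14%, 5.32 to 14.4) were called by both replicates, of intron members 42 of 228 (18.4%, 13.6 to 24.1), of UTR members 12 of 76 (15.8%, 8.43 to 26.0) and of non-coding-exon members 9 of 18 (26.0 to 74.0%). The last share rests on 18 members, some of them in the same host gene, as in tos-1. Peaks of 1 list are not replicates, so no difference is read from these intervals.

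**Figure D2:**
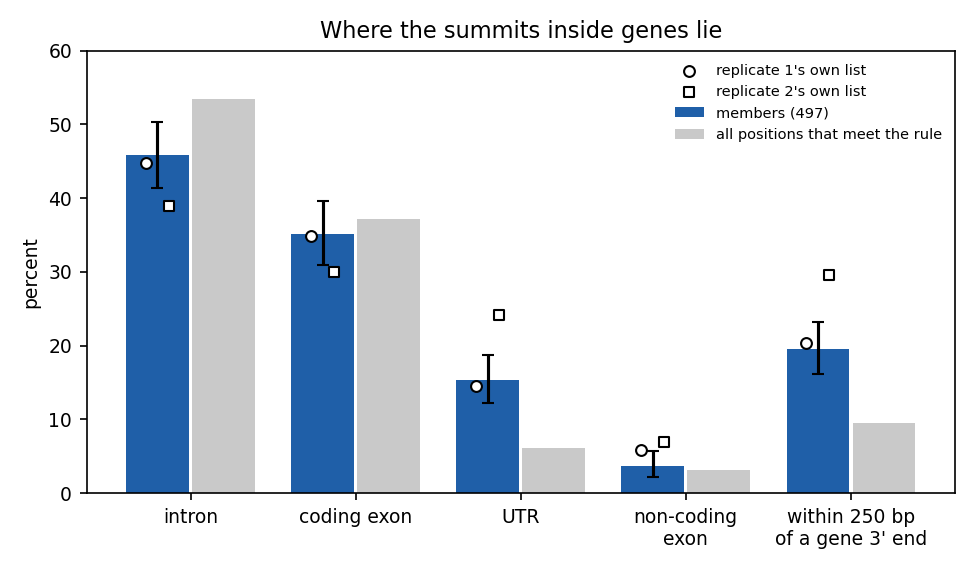
Percent of the 497 members by position of the summit (blue bars, with exact 95% intervals) beside the percent of all genome positions that meet the rule (grey bars); circles and squares give the shares in the own lists of replicates 1 and 2. The last pair counts summits near the 3' end of any gene and overlaps the other pairs. UTRs and 3' ends hold larger shares of members than of positions, and introns a smaller one.

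Some members lay close to starts that the rule does not count. The rule used the outer 5' end of each gene, and 59 members (11.9%) lay within 250 bp of the 5' end of some annotated transcript inside the gene, against 4.30% of positions. In pck-2 this distance was 1 bp and in T10B5.3 238 bp. The distances to gene 5' ends differed less from those of the positions: 80 members (16.1%) were 251 to 500 bp away, against 13.4% of positions, and 32 (6.44%) were over 5 kb away, against 7.75%. At the limit itself, the members in M03C11.3 (251 bp from a 5' end), his-60 (253 bp) and spd-5 (258 bp) had signals of 87.4, 116.8 and 228.5. The peaks just inside it, in uba-1 (250 bp), hsp-90 (249 bp) and K05C4.8 (248 bp), had signals of 90.4, 142.1 and 86.3.

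Members were spread over all 6 chromosomes, with the highest density on chromosome IV and the lowest on X and V. Chromosome IV held 102 members, or 15.2 per Mb of positions that meet the rule, with its clusters left out. Some of these members lay close outside the cluster limits, such as klp-18 and hsp-1 with summits at positions 7043633 and 17279277. Their part in the density was not tested. Chromosomes II and III held 94 and 92 (10.6 and 10.4 per Mb), I held 75 (7.60), V held 78 (6.61) and X held 56 (6.22). In the replicates' own lists IV was again the highest, at 5.08 and 6.57 per Mb, and X the lowest, at 2.22 and 1.89. In replicate 1 the density on X was hardly below that on I, at 2.23.

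On X the members were concentrated in the arms, taken as the outer 25% of the length on each side. The X arms held 44 members (10.02 per Mb), 23 in the left and 21 in the right, against 12 (2.60 per Mb) in the centre, a ratio of 3.85. The ratio was also above 1 in each replicate's own list, at 1.95 from 13 arm and 7 centre members in replicate 1, and at 2.52 from 12 and 5 in replicate 2. On the autosomes together the ratio was 0.914 (214 arm and 227 centre members), and 0.705 and 0.700 in replicates 1 and 2. Over all chromosomes it was 1.06 in the whole-series list but 0.796 and 0.782 in the replicates' own lists, so no direction holds for the genome as a whole. The word CGGCCGAC lay mostly at members in arms, both on X and on the autosomes. It was within 150 bp of the summit in 13 of the X members, 12 of which were in arms, and without these the X ratio was 3.05 (32 arm and 11 centre members). On the autosomes 10 members held the word, 9 of them in arms, and without these the ratio there was 0.880. The word itself was found in 1.21% of X arm windows and 0.175% of X centre windows, and in 0.749% and 0.150% on the autosomes. Its part in the result was not tested beyond that.

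**Figure D3:**
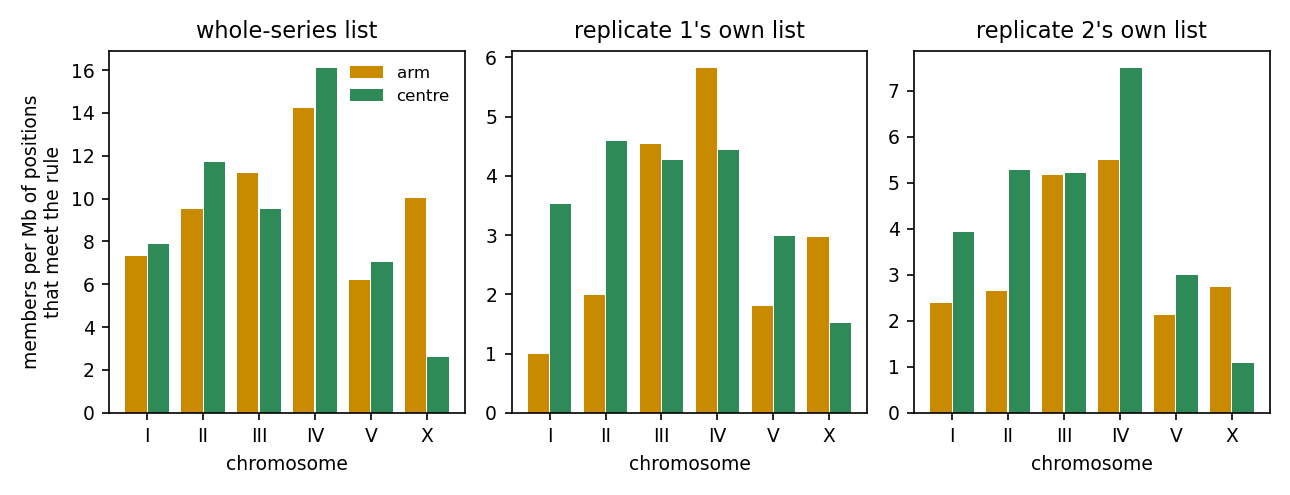
Members per Mb of positions that meet the rule, in arms (gold, outer 25% of the length on each side) and centres (green), for the whole-series list and each replicate's own list; each panel has its own y axis, starting at 0. On X the arm bar is above the centre bar in all 3 panels, at 10.02 and 2.60 per Mb in the first.

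The 497 members fell in 431 host genes, of which 414 were protein-coding, 8 were pseudogenes, 6 non-coding RNA genes and 3 long intergenic non-coding RNA genes. As a background, 2.07% of the 19973 protein-coding genes held a member. Most hosts (365) had 1 member, 52 had 2 and 14 had 3 or more. The last group was led by mnk-1, a MAP kinase-interacting kinase on chromosome II, with 8 members spread over its 12624 bp and signals from 15.9 to 148.3. In replicate 1 these were 33.6 to 77.4 and in replicate 2 43.2 to 82.1, where the strongest call inside each was taken. C30E1.9 held 4 (94.7 to 234.7), as did tos-1 (143.7 to 173.1), W06H8.6 (71.8 to 99.1) and lit-1, a Nemo-like kinase of the Wnt pathway (80.01 to 97.1). With 3 members each followed tir-1, epg-9, an autophagy gene, F39G3.3, mbk-2, a DYRK-family kinase of the early embryo, and Y111B2A.12. These counts are of summits and need not be separate sites. The lowest signals in F39G3.3 and mbk-2 were 3.85 and 6.23, in the weak tail described above. The C30E1.9 members at 106.4 and 98.93 were summits of the same peak interval. The 3 members of epg-9 lay close together in signal, at 113.8, 111.0 and 105.9, and 2 of them held an A box followed by a B box. The 4 members of tos-1 were also alike, at 85.4, 88.5, 75.9 and 66.1 in replicate 1 and at 95.3, 91.9, 77.8 and 77.2 in replicate 2.

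Host genes were counted in gene families from a list that names collagens, ribosomal proteins, translation factors, histones, heat shock proteins, nuclear hormone receptors, chemoreceptors, major sperm proteins, tubulins, actins, vitellogenins and homeobox genes. Against 9.02 members per Mb for the whole set, ribosomal protein genes held 7 members in 0.0301 Mb that meets the rule (7 of 78 genes, led by rpl-12 at 149.2, rpl-3 at 115.7 and rps-14 at 92.7). Heat shock protein genes held 7 in 0.0369 Mb (5 of 22 genes, led by hsp-1 at 145.9, hsp-90 at 102.1 and hsp-110 at 83.9). Histone genes held 3 in 0.0101 Mb (his-47 at 160.5, his-62 at 141.2 and his-60 at 116.8), and translation factors 3 in 0.0609 Mb (eef-1A.1 at 172.0 and 118.3, eef-2 at 103.8). Several of these counts are of 2 or 3 members, and reads from histone genes may be shared between near-identical copies. Collagen genes, which encode the cuticle that is being rebuilt at each larval moult, held 13 members in 0.173 Mb (12 of 156 genes, led by col-9 at 116.4, col-120 at 115.2 and col-81 at 100.2). The vitellogenin genes vit-6 and vit-5 held 1 each, at 76.8 and 57.6. These 6 families were put together after their counts had been seen. Of their 35 members, 8 (22.9%) were called by both replicates, against 15.9% of all members and 35.6% of nuclear peaks.

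Other families were rare or missing. Chemoreceptor genes, a large family of sensory neurons, cover 3.57% of positions but held 7 members (1.41%), led by srt-52 at 201.9, sru-42 at 104.7 and srh-284 at 104.6. Of these, srt-52 and srh-284 held an A box followed by a B box, and srt-52 is shown above. Nuclear hormone receptor genes cover 1.43% of positions and held no member (0 of 497, which allows a share of up to 0.604%, as 3 counts of the total). The 31 major sperm protein genes, 12 tubulin genes, 5 actin genes and 63 homeobox genes of the list held none either, but these cover at most 0.345% of positions each, so a count of 0 says little.

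The sequence around the summits was rich in G and C. The median G and C content of the 151-bp window was 46.4% for the members, against 36.4% over all positions that meet the rule, 47.0% for peaks near 5' ends and 43.7% for peaks between genes. It was 47.7% for intron and 48.3% for coding-exon members and 39.1% for UTR members. Words of T and A alone were less frequent at members than over all windows. TTTTTT was found in 124 members (24.9%) against 48.8% of all windows, and TATAAA, the TATA box, in 36 (7.24%) against 14.7%, counting both strands. CTGTTTCA, the core of the motif upstream of piRNA genes, was in 2 members (0.402%) against 0.838% of windows and 16.9% of cluster peaks. It was in 1 of 172 members (0.581%) of replicate 1's own list and 2 of 203 (0.985%) of replicate 2's, on either side of the windows' share, so no direction holds for it. Within 150 bp it was in 1.61% of members and 1.70% of windows. GAGAGAGA, a GA repeat, was in 12 members (2.41%) against 0.765%, and in 2 members (1.16%) and 4 members (1.97%) of the own lists of replicates 1 and 2. The words named in this and the next paragraph were not corrected for base composition.

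An A box followed by a B box on the same strand, a pair chosen after the members' sequences had been seen, was more frequent at members than over all windows. The pair, with 30 to 70 bp between the boxes, lay wholly within 75 bp of the summit in 23 members (4.63%, exact 95% interval 2.96 to 6.86), against 0.155% of all windows of that length. It was in 11 of 172 members (6.40%) of replicate 1's own list and 14 of 203 (6.90%) of replicate 2's. Peaks near 5' ends held it at 34.0% and peaks between genes at 6.87%. Of the peaks near 5' ends, 487 (53.6%) had the start of a tRNA, snRNA, snoRNA or SL RNA gene within 1000 bp, against 19 of the members (3.82%). Both classes were defined by the distance to a gene 5' end, so this difference is in part built in. None of the 23 had a tRNA gene or a pseudogenic tRNA of the RefSeq annotation within 75 bp. This absence was largely set by the rule, which leaves out summits within 250 bp of any annotated gene 5' end. Of the 23, 22 were in introns and 11 were called by both replicates, with a median signal of 105.5. The genome holds 929 places with such a pair at positions that meet the rule, and 23 of these (2.48%) were at a member. The B box core alone, GTTCGANNC, was in 12 members (2.41%) against 1.12% of windows, and its variant GTTCAANNC in 36 (7.24%) against 2.23%. The pair contains either of these, so the counts overlap. TTCNNGAANNTTC, the triplets of the tandem repeat shown for tir-1, was in 12 members (2.41%) against 1.17% of windows and 4.33% of peaks between genes, and in 4.07% and 4.93% of the members of the own lists of replicates 1 and 2. GTTCAANNC, the pair, CGGCCGAC and TTCNNGAANNTTC were chosen after the members' sequences had been seen.

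**Figure D4:**
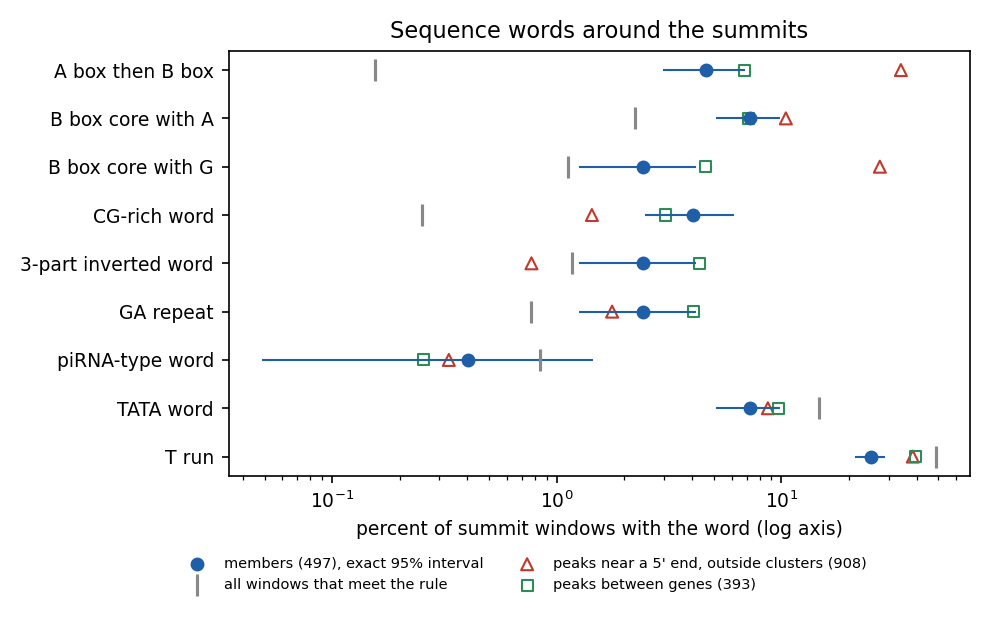
Percent of 151-bp windows around the summit that hold each sequence word on either strand (x axis, log), for the 497 members (blue, with exact 95% intervals), all windows that meet the rule (grey ticks), peaks near a 5' end (red triangles) and peaks between genes (green squares). The B box cores are GTTCAANNC and GTTCGANNC, the CG-rich word CGGCCGAC, the 3-part inverted word TTCNNGAANNTTC and the piRNA-type word CTGTTTCA. The A box and B box pair is in 4.63% of members and 0.155% of windows, and the T run in 24.9% and 48.8%.

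Many members had further copies in the genome. Of the 497, 137 (27.6%, 23.7 to 31.7) had at least 1 further place in the nuclear genome where 100 bp or more of the summit window matched at 80% identity or more, and 79 (15.9%) had 10 or more such places. Peaks near 5' ends had copies about as often (27.2%) but 10 or more of them less often (4.30%), and peaks between genes stood at 32.1% and 18.6%. Compared with each other, 122 members (24.5%) resembled another member elsewhere, and 85 fell into 9 sets of 5 or more. Of all 497 windows, 410 (82.5%) were wholly made of 50-base words that occur once in the genome, and 29 (5.84%) were under 50% unique, against 89.9% and 4.95% of all positions. The part of reads shared between copies in these peaks was not tested.

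The sets differed in signal and in how often they were called. The 6 nearly identical copies, in K08C7.1, T24H10.5, ptr-17, pmt-2, C25G6.3 and Y22D7AR.2, had the highest signal, from 134 to 389 with a median of 210, and 5 were called by both replicates and none by neither. Each had 17 to 20 further copies in the genome, and a median of 10 of these copies held a nuclear peak summit within 75 bp. Between the 6 members the median identity was 97.1%, and the part of shared reads in their signal and calls was not tested. The 13 members of the family of spe-43, srt-52 and tpra-1 had a median signal of 105.5 (83.6 to 253), and 6 were called by both replicates. None of the 13 was on X, and 12 were in introns. Their median number of further copies was 59, and a median of 26 held a peak. The 8 members of the frpr-2 family had a median of 91.9 (74.1 to 143), 6 were on X and 1 was called by both replicates. The 11 members with the repeat of tir-1 and cua-1 had a median of 108.6 (77.2 to 282), all were in introns, and 5 were called by both. At the tir-1 summit no 50-base word was unique (0%), so a 50-base read within that window would also match another place. How the reads there were placed was not tested.

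The largest set held 23 intron members, among them F54G2.1, M02D8.7 and WBGene00019912. CGGCCGAC lay within 75 bp of the summit in 17 of the 23, and the other 3 members with the word were in no set. Its median signal was 93.4 (5.57 to 131), 21 of its members were in arms and 14 on X, and 16 were called by neither replicate and 1 by both. Its members had a median of 17 further copies, of which a median of 1 held a peak. The word CGGCCGAC lay within 75 bp of the summit in 20 members (4.02%) against 0.252% of windows, but in only 2 of 172 members (1.16%) in replicate 1's own list and 6 of 203 (2.96%) in replicate 2's. A further set joined coding exons of 8 collagen genes, among them col-81, col-162 and col-17, which resemble each other as a gene family does. These had signals from 60.1 to 100 and none was called by both replicates. The last 3 sets, with 6, 5 and 5 members, had medians of 79.6, 87.9 and 89.2, and none of their members was called by both replicates either.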

How the data were processed

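Peaks of anti-GFP ChIP-seq on tagged SNPC-1.2 were taken from the deposited lists on ce11 for 2 replicates and the whole series; the larvae were sonicated to 200 to 800 bp per the labels. Per the file headers and notes, lists came from filtered alignments and a control; no aligner or caller is named there. The deposited signal is the caller's value per peak, and the ranked lists as deposited give the −log10 of the irreproducible discovery rate (IDR), from which the limit of 0.001 was set. Read depth is unknown, so exact (Clopper-Pearson) intervals cover counting of peaks only. Whether the replicates were separate cultures is not stated beyond the word biological.

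The annotation was Ensembl release 115 (WBcel235), and genome sequence was that of RefSeq for this build. Position was assigned in the order coding exon, UTR, other exon, intron. All positions meeting the rule served as background, and no test over peaks was run. Replicate values are the strongest ranked call with its summit inside the member, so overlapping members can take the same call. The A box was searched as its published degenerate consensus and the B box as GTTCGANNC or GTTCAANNC. Members were compared with BLAST+ 2.17.0 in windows of 301 bp (bit score of 60 or more), leaving out overlapping windows; chained matches make a set. Shares and masks were tested on simulated data.

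The members and lists were chosen with earlier results of these data known. Named genes are the 15 highest members, the 3 highest per position class, the highest per chromosome, hosts with 3 or more members (at most 10), those at the 250 bp limit, up to 3 per gene family, and members of sets with shared sequence, which were added after their values were seen. Alternatives were other lists, limits, distances, 5' ends, arms, overlaps and windows, and each replicate left out.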

Additional observations from a re-analysis of the deposited data

How the results depend on the processing

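No paired analysis was possible because there is 1 group. Of 117 values under an alternative, 67 moved by less than the spread between the replicates' own lists (or, for counts, stayed within 1.5 times). Without replicate 1 or replicate 2, that is in the other replicate's own list, there were 172 to 203 members in 144 to 184 host genes. Introns then held 38.9% to 44.8%, UTRs 14.5% to 24.1% and 3' ends 20.3% to 29.6%. The arm to centre ratio was 0.782 to 0.796 over all chromosomes, which turns its direction, and 1.95 to 2.52 on X. The signal ratio to peaks near 5' ends was 0.697 to 0.726, and GTTCGANNC was in 2.96% to 4.65%. Replicate 1 called 40.4% of the members of replicate 2's list, and replicate 2 called 48.3% of those of replicate 1's.

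At an IDR of at most 0.001, 114 members were left, with 23.7% in UTRs, 31.6% at 3' ends, 21.1% in coding exons and 10.5% in non-coding exons, an arm to centre ratio of 0.884, again turned, a signal ratio of 0.758, and 71.9% and 89.5% called by replicates 1 and 2. In the conservative list the arm to centre ratio turned to 0.881 and that of X was 2.28. Over all chromosomes the arm to centre ratio was 1.02 and 1.15 with distances of 100 and 500 bp, 1.05 with transcript 5' ends, 1.11 with arms as the outer 1/3 of the length on each side and 1.13 without chromosome IV. On X it was 4.28 with those wider arms and 3.05 without members that hold CGGCCGAC, a setting added after the data were seen. The signal ratio was 0.601 and 0.724 at 100 and 500 bp and 0.713 with transcript 5' ends. GTTCGANNC was in 4.43% within 150 bp. The cause of these changes was not tested. Read depth is unknown, so what depth limits cannot be given.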
